A study of Homo sapiens with 6 samples.

Results

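Desmosome genes encode the proteins of the desmosome, the junction that ties the keratin filaments of neighbouring epithelial cells together. The 10 genes described here were chosen by symbol from the 25349 genes with a read count: the desmosomal cadherins DSG2, DSG3, DSC2 and DSC3, the armadillo proteins JUP, PKP1, PKP2 and PKP3, the plakin DSP, and the membrane protein PERP. Their levels in SCC-9 cells were compared after transfection of either an siRNA that targets exon 7 of MKI67, which encodes the proliferation marker Ki67, or a nonspecific siRNA. With the exon 7 siRNA, 5 of the 10 genes fell (DSC2, JUP, DSG2, PKP3 and DSP), 1 rose (PERP), and 4 did not pass the test (DSG3, DSC3, PKP1 and PKP2). Of all tested genes 16.0% fell and 18.0% rose.

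In a desmosome the desmogleins (DSG) and desmocollins (DSC) of neighbouring cells bind each other across the gap between the membranes. Inside the cell their tails bind plakoglobin (JUP) and the plakophilins (PKP), these bind desmoplakin (DSP), and desmoplakin holds the keratin filaments. In stratified squamous epithelium such as that of the tongue, DSG3 and DSC3 are the cadherins of the lower, dividing layers, whereas DSG2 and DSC2 are also made by simple epithelia and heart muscle. DSG3 is the antigen attacked in pemphigus vulgaris, a blistering disease of the mouth and skin. PERP is a tetraspan protein of the PMP22 family, known as a target of p53 and p63 that stratified epithelia need for desmosome assembly.

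SCC-9 cells are an established human line that was derived from a squamous carcinoma of the tongue, so all libraries came from the same line. The siE7 group received an siRNA aimed at exon 7 of MKI67 and the siNC group the nonspecific siRNA, each at 10 nM by lipofection, on day 0 and, after passage, on day 2. Both groups grew in the same medium with serum and hydrocortisone, and each group has 3 polyA-selected libraries. Which of 3 exon 7 siRNAs in the methods was used for these libraries is not given, so an effect of its sequence and an effect of MKI67 cannot be told apart. No label says that the replicates were separate cultures, and the p-values then measure the spread between these samples, which may be technical.

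The libraries held 25608192 to 29550264 counts on genes, and 14661 genes were tested. MKI67, the targeted gene, lay at 1072, 1029 and 1077 CPM (counts scaled to the library size) in siNC replicates 1, 2 and 3 and at 112, 124 and 108 in siE7 replicates 1, 2 and 3, so the libraries matched their labels. All 8 squamous markers were detected, with a summed level of 23291 to 24807 CPM with siNC and 21325 to 27813 CPM with siE7. KRT14 led this sum, which does not show that each marker kept its level. CDH1, SFN, KRT5 and TP63 fell, KRT17 rose, and KRT14 and KRT6A did not pass the test. For EPCAM every siE7 library lay below every siNC library. The summed markers of other cells were far lower: 16.5 to 24.2 CPM for fibroblasts, led by COL1A1, and at most 2.06 CPM for cardiac muscle, endothelium, leukocytes or melanocytes. The siE7 replicate 1 library stood apart from the other 5. Its chi-square per degree of freedom over genes was 61.1 and 72.7 against siE7 replicates 2 and 3, whereas the other replicate pairs gave 5.54 to 6.22. Levels of genes in siE7 replicate 1 also rose with the GC content of the transcript (Spearman correlation with the deviation from the mean of all libraries 0.539), against -0.36 and -0.366 in siE7 replicates 2 and 3 and 0.012 to 0.092 with siNC. The log2 fold change of each member is therefore also given without siE7 replicate 1. That fit leaves only siE7 replicates 2 and 3 in their group, a pair that lay close together (6.22). Its p-values thus rest on a smaller spread and are not stronger evidence than those from all libraries.

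On GRCh38 the 4 cadherin genes lie in 1 cluster on chromosome 18, with DSC3 (chr18:30989365-31042815) and DSC2 (chr18:31058840-31102522) on the minus strand and DSG3 (chr18:31447741-31478702) and DSG2 (chr18:31498177-31549008) on the plus strand. DSC2 starts 59.7 kb and DSG2 455 kb from the start of DSC3. The canonical transcripts of DSG3, DSC2 and DSC3 have 16 exons and that of DSG2 has 15. The other members are spread over the genome. DSP (chr6:7541338-7586714, plus strand) has 24 exons and PERP (chr6:138088505-138107419, minus strand) has 3. JUP (chr17:41754604-41786931, minus strand) and PKP1 (chr1:201283452-201332993, plus strand) have 14 exons each, and PKP2 (chr12:32790745-32896798, minus strand) and PKP3 (chr11:392614-404908, plus strand) have 13 each.

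The upstream sequences of DSG2 and DSC2, which fell, DSG3, which stayed above or near its control level, and PERP, which rose, are shown because they are cadherins that differed in their calls and the 1 member that rose. The windows run from 250 bases before to 50 bases after the RefSeq start on GRCh38.p14, and 8 of the 10 members had one, PKP2 and PKP3 being the exceptions. The bases printed are those upstream of every annotated exon, 5′ to 3′ on the strand of the gene, in lower case. Capitals mark matches on either strand to an E-box (CAGGTG), a motif bound by SNAI2 and related repressors, or a GC box (GGGCGG). They also mark an AP-1 site (TGANTCA) or a p53 family half-site of 10 bases. Overlapping GC boxes run together.
DSG2, chr18:31497927-31498176, plus strand: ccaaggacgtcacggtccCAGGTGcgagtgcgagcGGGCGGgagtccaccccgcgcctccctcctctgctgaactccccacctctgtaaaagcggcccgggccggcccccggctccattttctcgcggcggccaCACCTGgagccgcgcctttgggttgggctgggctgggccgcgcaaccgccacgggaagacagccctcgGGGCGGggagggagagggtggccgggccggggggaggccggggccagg
DSC2, chr18:31102523-31102671, minus strand: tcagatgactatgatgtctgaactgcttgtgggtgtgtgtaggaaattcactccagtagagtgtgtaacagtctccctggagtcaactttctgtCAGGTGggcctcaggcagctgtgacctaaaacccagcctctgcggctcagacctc
DSG3, chr18:31447491-31447740, plus strand: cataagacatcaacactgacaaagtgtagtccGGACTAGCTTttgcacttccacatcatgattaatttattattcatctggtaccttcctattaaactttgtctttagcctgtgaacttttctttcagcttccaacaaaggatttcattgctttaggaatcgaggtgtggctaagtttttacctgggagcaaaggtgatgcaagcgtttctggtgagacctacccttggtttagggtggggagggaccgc
PERP, chr6:138107420-138107669, minus strand: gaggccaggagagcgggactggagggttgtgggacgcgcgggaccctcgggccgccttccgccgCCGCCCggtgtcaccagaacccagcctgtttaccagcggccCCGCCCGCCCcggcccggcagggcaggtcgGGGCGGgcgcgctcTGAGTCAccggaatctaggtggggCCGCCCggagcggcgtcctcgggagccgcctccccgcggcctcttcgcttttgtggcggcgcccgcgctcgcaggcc

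In the DSG2 window the E-box was present at 2 positions, -232 and -116 from the start. Of the 2 windows of DSC2, the one shown here held 1, at -156, and the other held none. DSP held 2 E-boxes, at -178 and -85. Its window begins at chr6:7541421, inside the annotated gene, with 0 bases upstream of the annotated exons in it. Of the 2 windows of JUP, 1 held 2 E-boxes, at -54 and -43. That window also lies inside the annotated gene. Only 17 of its bases lie upstream of the annotated exons in it, and these E-boxes are not among them. The other window of JUP, at the 5′ end of the gene, held no E-box. The windows of PERP, DSG3, DSC3 and PKP1 held no E-box, while 20.6% of 35116 promoter windows of the same length held at least 1. PERP held an AP-1 site at -101, a motif found in 7.71% of windows, and 5 GC boxes, a motif found in 45.0%. The p53 family half-site, found in 6.63% of windows, was present in DSG3 at -218 and in DSC3 at -57, 1 in each. The DSC3 site lies among the 73 bases next to the start that are not upstream of every annotated exon. No window of a member held the site of the GRHL factors (AACCGGTT, 0.134% of windows) or a TATA box (TATAAA, 11.5%). A match is a description of the letters in the window, and binding at these sites was not measured.

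DSG2 and DSC2, the cadherins shared with simple epithelia, both fell. DSG2 was present at 137, 134 and 132 CPM in siNC replicates 1, 2 and 3 and at 57.2, 83.9 and 86.4 CPM in siE7 replicates 1, 2 and 3. Every siE7 library lay below every siNC library, with siE7 replicate 1 the lowest. The mean went from 134 ± 2.95 CPM (SD, n = 3) to 75.8 ± 16.2 CPM (SD, n = 3), a log2 fold change of -0.82 (SE 0.151, 95% confidence interval -1.15 to -0.49, adjusted p = 0.0018). DSC2 had 38.4, 34.6 and 35.4 CPM with siNC and 13.3, 19.4 and 18.9 CPM with siE7. The groups again did not overlap, and the siE7 level was 47.5% of that with siNC. Its log2 fold change of -1.07 (SE 0.160, interval -1.42 to -0.72, adjusted p = 0.00049) gave DSC2 the largest decrease over all 6 libraries, and over these it alone of the members that fell passed the threshold of the study for a differentially expressed gene (DEG), a log2 fold change beyond 1. Without siE7 replicate 1, DSG2 changed by -0.72 (adjusted p = 2e-13) and DSC2 by -0.98 (adjusted p = 4e-12), which left DSC2 inside the DEG threshold and JUP (-1.10) as the member with the largest decrease. In these bulk samples, fewer cells of a type and less RNA per cell cannot be told apart.

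DSG3 and DSC3, the cadherins of the lower layers of stratified epithelium, did not pass the test over all 6 libraries. DSG3 had 24.3, 22.9 and 22.6 CPM with siNC and 23.8, 34.3 and 32.3 CPM with siE7. Only siE7 replicate 1 lay within the range of the controls, and the other siE7 libraries lay above it. The log2 fold change was 0.37 (SE 0.153, interval 0.04 to 0.71, adjusted p = 0.080). Without siE7 replicate 1 DSG3 passed the test as higher, with a log2 fold change of 0.46 (interval 0.28 to 0.63, adjusted p = 2e-05). DSC3 had 36.9, 32.1 and 31.6 CPM with siNC and 18.7, 27.5 and 30.2 CPM with siE7. Its groups did not overlap, but siE7 replicate 3 came close to the lowest control, and the log2 fold change was -0.40 (SE 0.173, interval -0.77 to -0.02, adjusted p = 0.099). DSC3 passed as lower without siE7 replicate 1 (-0.28, adjusted p = 0.0067) and without siE7 replicate 3 (-0.53, adjusted p = 0.047). Over all 6 libraries, a gene that fell thus lay next to one that did not pass in both cadherin pairs of the cluster. Without siE7 replicate 1 both desmocollins passed as lower.

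**Figure D1:**
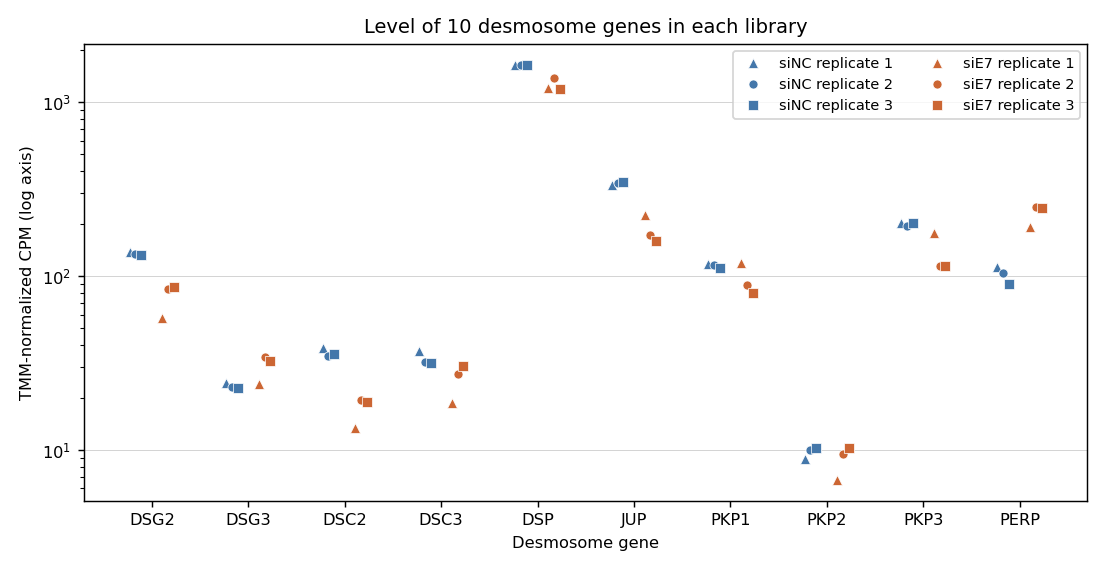
The level of each of the 10 desmosome genes in TMM-normalized CPM (log axis) in 3 siNC libraries (blue) and 3 siE7 libraries (orange), with a triangle, circle and square for replicates 1, 2 and 3. The siE7 points of DSG2, DSC2, DSC3, DSP, JUP and PKP3 all lie below the siNC points, those of PERP lie above, and those of DSG3, PKP1 and PKP2 overlap them.

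Among the armadillo proteins, which link the cadherin tails to desmoplakin, JUP and PKP3 fell. JUP, which encodes plakoglobin and also serves adherens junctions, had 336, 342 and 346 CPM with siNC and 224, 173 and 159.9 CPM with siE7. The siE7 libraries all lay below the controls, at 54.3% of their mean. The log2 fold change was -0.88 (SE 0.133, interval -1.17 to -0.59, adjusted p = 0.00053), and without siE7 replicate 1 it was -1.10 (adjusted p = 7.4e-19), past the DEG threshold. PKP3, a plakophilin found in most epithelia, had 201, 194 and 201 CPM with siNC and 177, 114 and 114 CPM with siE7. The groups did not overlap, although siE7 replicate 1 was nearer to the controls than to the other siE7 libraries. The log2 fold change was -0.56 (SE 0.163, interval -0.92 to -0.20, adjusted p = 0.021). It was -0.87 without siE7 replicate 1 (adjusted p = 4.3e-16), and the call was lost without siNC replicate 1, 2 or 3 (adjusted p = 0.069, 0.061 and 0.073), without siE7 replicate 2 (0.079) and without siE7 replicate 3 (0.066).

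PKP1 and PKP2 did not pass the test. PKP1, a plakophilin of the upper layers of stratified epithelium, had 118, 116 and 111 CPM with siNC and 119, 88.4 and 79.4 CPM with siE7. The siE7 replicate 1 library lay at the level of the controls and the other siE7 libraries lay below them. Over all libraries the log2 fold change was -0.26 (SE 0.146, interval -0.59 to 0.06, adjusted p = 0.19), whereas without siE7 replicate 1 it was -0.52 (interval -0.64 to -0.39, adjusted p = 3.4e-09) and passed as lower. PKP2, the plakophilin of simple epithelia and heart muscle, was the member with the fewest counts, at 8.91, 10.0 and 10.2 CPM with siNC and 6.71, 9.42 and 10.3 CPM with siE7. Its groups overlapped, and the log2 fold change of -0.14 (SE 0.189, adjusted p = 0.60) had an interval from -0.55 to 0.28. It was -0.03 (adjusted p = 0.84) without siE7 replicate 1.

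DSP, the plakin that anchors the keratin filaments, fell by a small amount from the highest level of all members. It had 1641, 1633 and 1628 CPM with siNC and 1209, 1371 and 1198 CPM with siE7. The controls lay close together, and each siE7 library lay below them. The mean went from 1634 ± 6.18 to 1259.6 ± 96.9 CPM (SD, n = 3 each), or 77.1% of the control, with a log2 fold change of -0.38 (SE 0.103, interval -0.60 to -0.15, adjusted p = 0.016). Without siE7 replicate 1 the value was -0.41 (adjusted p = 2.3e-07). The call was lost when siNC replicate 1, 2 or 3 was left out (adjusted p = 0.07, 0.068 and 0.069) and when siE7 replicate 3 was left out (0.051), with log2 fold changes of -0.34 to -0.39.

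PERP was the only member that rose over all 6 libraries. It had 113, 104 and 89.4 CPM with siNC and 191, 249.6 and 246 CPM with siE7. Every siE7 library lay above every siNC library, and siE7 replicate 1 was the lowest of them. The mean went from 102 ± 11.7 to 229 ± 32.6 CPM (SD, n = 3 each), 2.25-fold, a log2 fold change of 1.17 (SE 0.137, interval 0.87 to 1.47, adjusted p = 0.00011). PERP thereby passed the DEG threshold, also without siE7 replicate 1 (1.22, adjusted p = 6.6e-15).

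**Figure D2:**
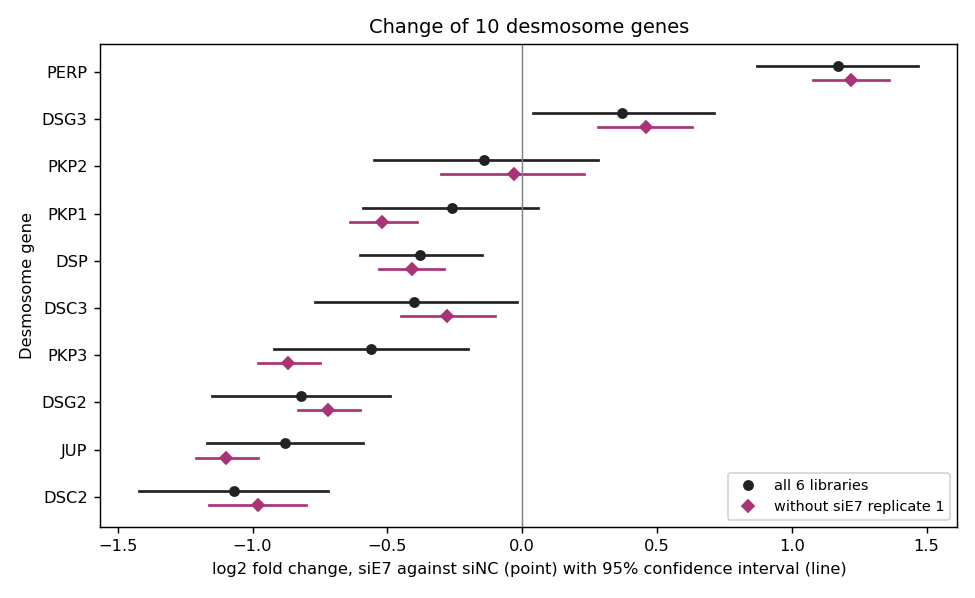
The log2 fold change of each desmosome gene, siE7 against siNC, with its 95% confidence interval (line), from all 6 libraries (black circles) and without siE7 replicate 1 (purple diamonds). PERP lies at 1.17 and 1.22 and DSC2 at -1.07 and -0.98, and the intervals are narrower without that library, where only that of PKP2 includes 0.

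Of the 10 members, 5 were called lower at an adjusted p under 0.05 and 1 was called higher. Over all 14661 tested genes, 16.0% were called lower and 18.0% higher. As DEGs, 1 member was lower (DSC2) and 1 higher (PERP), where 4.84% and 7.38% of all tested genes were DEGs in these directions. The siE7 libraries all lay below the siNC libraries for 6 members and all above for 1, against 22.7% and 24.9% of tested genes. The median log2 fold change was -0.39 over the members and 0.0768 over all tested genes. Without siE7 replicate 1, 9 members were called, 7 lower and 2 higher (PERP and DSG3), where 29.5% of 15011 tested genes were lower and 28.9% higher. The members are 10 genes picked for their role, and these shares are set side by side as a description.

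The deviation of siE7 replicate 1 followed GC content among the members too. Relative to the mean of siE7 replicates 2 and 3, the level in replicate 1 was lower on the log2 scale by 0.62 for DSC3, 0.57 for DSG2, 0.56 for PKP2, 0.53 for DSC2, 0.48 for DSG3 and 0.37 for PERP, whose transcripts are 39.0% to 46.1% GC. It was higher by 0.43 for JUP, 0.51 for PKP1 and 0.64 for PKP3, at 56.3% to 66.7% GC, and DSP at 47.7% GC lay at -0.09. Over the 10 members Pearson's r was 0.948 and Spearman's rho 0.794, as a description of 1 library, since all points share it. The largest difference between any siNC libraries was 0.33 (PERP) and 0.01 to 0.22 for the other members. When the trend of each library with GC content was taken out, an alternative added after the data were seen, DSG3 (0.24, adjusted p = 0.030), DSC3 (-0.52, adjusted p = 0.00015) and PKP1 (-0.26, adjusted p = 0.011) also passed and 9 of 10 members were called. The part of GC content in the spread among the siE7 libraries was not tested further.

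**Figure D3:**
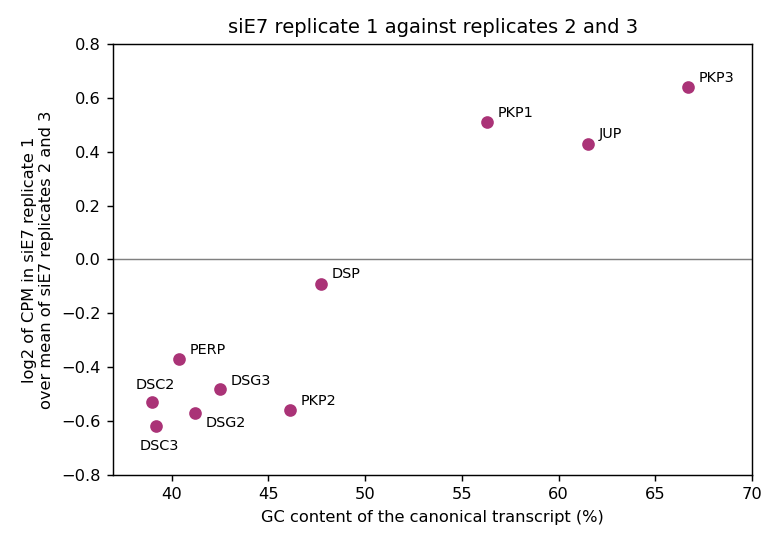
For each desmosome gene, the log2 ratio of its CPM in siE7 replicate 1 over the mean of siE7 replicates 2 and 3, against the GC content of its canonical transcript in percent. The 6 members of 39.0% to 46.1% GC lie between -0.62 and -0.37, DSP at -0.09, and the 3 members of 56.3% to 66.7% GC between 0.43 and 0.64.

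Levels of different genes were compared per kilobase of the canonical transcript. In CPM per kilobase the siNC cells had most DSP (169 ± 0.637, SD, n = 3), then JUP (97.4 ± 1.46), PKP3 (70.6 ± 1.4), PERP (24.3 ± 2.78), DSG2 (23.6 ± 0.517) and PKP1 (21.6 ± 0.713). DSC3 (4.42 ± 0.383), DSG3 (4.17 ± 0.158), DSC2 (2.93 ± 0.163) and PKP2 (2.29 ± 0.163) followed. The siNC libraries of PERP and DSG2 overlapped, as did those of DSC3 and DSG3, so these neighbours did not differ beyond their spread. DSG2 was thus the most abundant cadherin of the control cells per kilobase and PKP3 the most abundant plakophilin. With siE7, PERP went from the fourth to the second place at 54.5 ± 7.77 CPM per kilobase, behind DSP (129.9 ± 9.99), and overlapped JUP (52.9 ± 9.62), which in turn overlapped PKP3 (47.9 ± 13.0). DSC2 was last at 1.39 ± 0.277, below PKP2 at 2.09 ± 0.445. The canonical transcript of DSC2 is 12331 bases long, and a shorter transcript in these cells would raise its level per kilobase. All annotated exons together span 12501 bases for DSC2, but 10288 for PKP2, against 4229 in its canonical transcript. They span 9492 bases for DSG2 against 5697, and 6211 for PKP1 against 5326. The order of PKP2 and DSC2, and that of DSG2 and PKP1, thus depends on the length used.

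Next, the balance within each family was compared as the share of a gene in the family's counts per base, a value that does not depend on the scaling between libraries. DSG3 made up 15.3%, 14.9% and 14.9% of the desmoglein signal with siNC and 29.8%, 29.5% and 27.6% with siE7. The share was 13.9 percentage points higher with siE7, and the 3 siE7 libraries lay close together, siE7 replicate 1 included. DSC3 made up 60.9%, 60.1% and 59.2% of the desmocollin signal with siNC and 69.7%, 69.7% and 72.2% with siE7, a difference of 10.5 points. In both cadherin families the share of the gene typical of the lower squamous layers was thus higher in every siE7 library than in every siNC library. In the plakophilins, PKP1 went from 22.8% ± 0.766 to 26.5% ± 1.32 and PKP3 from 74.7% ± 0.715 to 70.2% ± 2.12 (SD, n = 3 each), again without overlap. PKP2 stayed the smallest share, at 2.43% ± 0.197 and 3.28% ± 1.27, with overlapping libraries.

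The exact permutation test (two-sided, 3 against 3 libraries) gave p = 0.10 for the shares of DSG3, DSC3, PKP1 and PKP3, the smallest p that this test can give with 3 against 3 libraries, and p = 0.4 for PKP2. Adjusted over the 5 shares, the exact values were 0.125 and, for PKP2, 0.4. No share can pass the threshold of 0.05 by this test. Without siE7 replicate 1 the difference was 13.5 points for DSG3, 10.9 for DSC3, 4.1 for PKP1 and -5.67 for PKP3. Summed over each family, CPM per kilobase with siE7 was 66.9% of that with siNC for the 4 cadherins (35.1 ± 1.2 to 23.5 ± 4.87), 67.5% for the desmogleins, 64.6% for the desmocollins and 71.9% for the plakophilins (SD, n = 3 each), each with an exact permutation p = 0.10. The siE7 replicate 1 library had the lowest sum of the cadherins (17.9, against 26.1 and 26.5) and the highest of the plakophilins (86.8, against 59.1 and 57.8), and neither sum overlapped between the groups.

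Of the desmosome genes outside the 10, PKP4, an armadillo protein of desmosomes and adherens junctions, fell. It had 45.8, 45.2 and 47.8 CPM with siNC and 27.3, 31.8 and 31.6 CPM with siE7, a log2 fold change of -0.62 (SE 0.12, adjusted p = 0.0025). The value was -0.61 without siE7 replicate 1 (adjusted p = 1.2e-08). CDSN, the corneodesmosin of the outermost skin layers, had 1.4 ± 0.138 CPM with siNC and 0.566 ± 0.438 with siE7 (SD, n = 3 each) and did not pass over all libraries (adjusted p = 0.076). CDSN passed as lower with the replicate block (-1.47, adjusted p = 0.012), with limma-voom (adjusted p = 0.046), without the filter on low counts (adjusted p = 0.011), with the GC trend removed (adjusted p = 0.042), and without siE7 replicate 1 (adjusted p = 0.019) or siE7 replicate 3 (adjusted p = 0.023). CDSN shares 2394 exon bases with PSORS1C1 on the other strand, which holds 2739 counts against its 158, so its value is uncertain. DSC1, the desmocollin of upper skin layers that lies in the same cluster, had at most 6 counts in a library and was not tested. DSG1 and DSG4 were not among the 25349 genes with a read count.

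**Figure D4:**
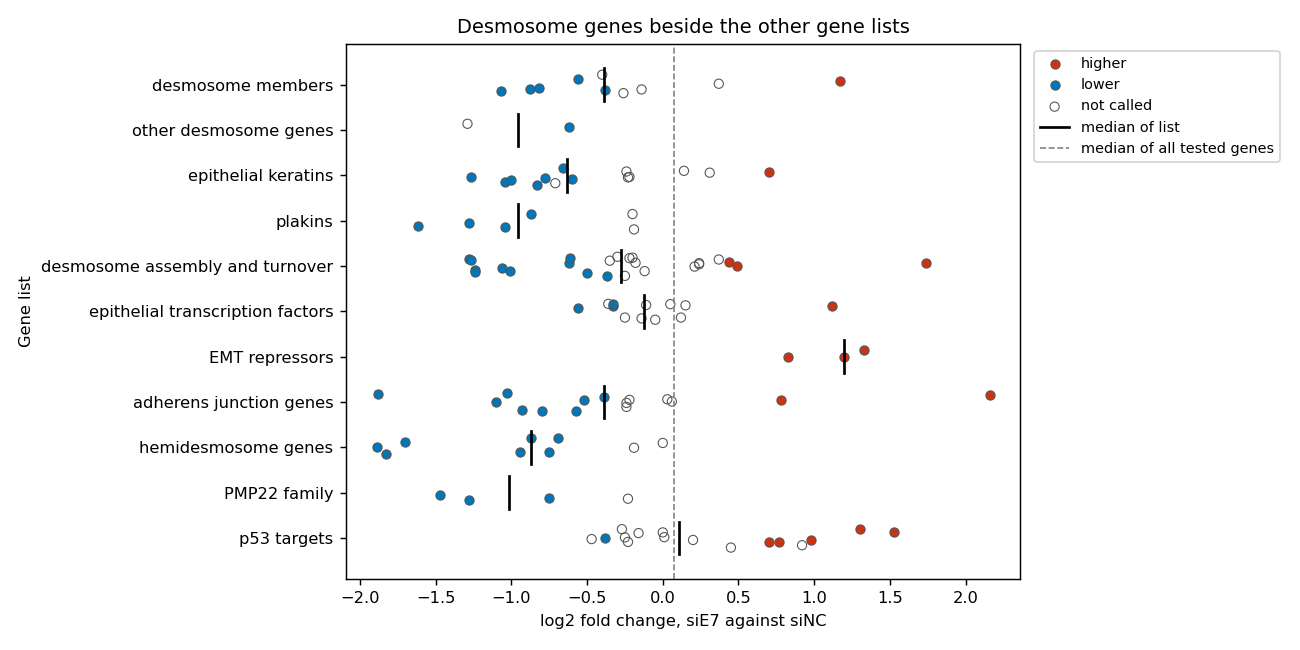
Each tested gene of the 10 desmosome genes and of 10 other gene lists by its log2 fold change, siE7 against siNC, coloured by its call at an adjusted p under 0.05, with the median of each list (black line) and of all tested genes (dashed line, 0.0768). The median of the desmosome genes lies at -0.39, that of the hemidesmosome genes at -0.87 and that of the EMT repressors at 1.2.

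The keratins are the filaments that desmosomes hold. Of 14 tested epithelial keratins 7 fell, 1 rose and 6 did not pass, with a median log2 fold change of -0.63. Beside the counts of this list and of those that follow, 16.0% of all tested genes fell and 18.0% rose. KRT18 and KRT8, the keratin pair of simple epithelia, changed by -1.27 (SE 0.125, adjusted p = 3.3e-05) and -1.0 (SE 0.126, adjusted p = 0.00017), and KRT6B by -1.04 (SE 0.184, adjusted p = 0.0015). KRT7, another keratin of simple epithelia, changed by -0.83 (adjusted p = 0.0013). KRT17 was the keratin that rose, by 0.70 (SE 0.12, adjusted p = 0.0013). Of the pair of the basal layer, KRT5 fell (-0.60, adjusted p = 0.005) and KRT14 did not pass (0.31, adjusted p = 0.083), although it did without siE7 replicate 3 (0.39, adjusted p = 0.044) and without composition factors (0.47, adjusted p = 0.0062). KRT17, KRT5 and KRT14 were named after their values were seen. KRT6B and KRT17 have near-identical relatives in the genome, and how the counting shared reads among such genes is not given, so their values are uncertain. The other keratins were not checked for such relatives.

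Of the 6 other plakins, the family of DSP, 4 fell and 2 did not pass, with a median log2 fold change of -0.96. Periplakin (PPL), which binds keratins near the desmosome, went from 249 ± 5.56 to 80.9 ± 13.2 CPM (SD, n = 3 each), a log2 fold change of -1.62 (SE 0.13, adjusted p = 8.3e-06). EPPK1 (epiplakin) changed by -1.28, MACF1, which links actin and microtubules, by -1.04, and DST (dystonin) by -0.87, with adjusted p-values of 0.0029, 3.1e-05 and 0.0013. EVPL (envoplakin, -0.20, adjusted p = 0.27) and PLEC (plectin, -0.19, adjusted p = 0.30) did not pass over all libraries, and all 6 passed as lower without siE7 replicate 1.

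Of 24 genes that build, cut or turn over desmosomes, 10 fell, 3 rose and 11 did not pass, with a median of -0.27. Without siNC replicate 1, and likewise without siNC replicate 3, 7 fell and none rose. EGFR, the receptor whose signal phosphorylates desmosomal proteins, went from 298 ± 10.4 to 124 ± 6.08 CPM (SD, n = 3 each), a log2 fold change of -1.27 (SE 0.105, adjusted p = 9.1e-06). The skin proteases KLK5 and KLK7, which cut corneodesmosomes, changed by -1.28 (adjusted p = 8.6e-05) and -1.24 (adjusted p = 0.00016). SPINK5, the inhibitor of these proteases, rose by 1.74 (SE 0.523, adjusted p = 0.024) from a level of only 0.480 CPM. The call of SPINK5 was lost without siNC replicate 1 (adjusted p = 0.075), siNC replicate 3 (adjusted p = 0.069) or siE7 replicate 3 (adjusted p = 0.078). The kinesin heavy chain KIF5B fell (-1.06, adjusted p = 0.00086) and was also 1 of the 3 genes outside the members whose log2 CPM was most like the members' mean profile over the 6 libraries (Pearson's r 0.9982). The others were LRRC58 (r 0.9984, log2 fold change -1.31) and MACC1 (r 0.9979, -1.97), and these correlations describe 6 libraries that fall into 2 groups.

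Among 12 transcription factors of epithelial identity, 3 fell, 1 rose and 8 did not pass, where 16.0% of all tested genes fell and 18.0% rose. KLF4, a factor of squamous differentiation, went from 6.01 ± 0.176 to 13.0 ± 1.03 CPM (SD, n = 3 each), a log2 fold change of 1.12 (SE 0.158, adjusted p = 0.00033). TP63, the regulator of squamous identity and of PERP, fell (-0.33, SE 0.107, adjusted p = 0.031), as did GRHL3 (-0.56, adjusted p = 0.044). The 3 decreases in this list were not called in every setting. In all, 0 were called without composition factors, without siNC replicate 1, 2 or 3 and without siE7 replicate 3, and 1 with the replicate block, with upper-quartile factors and without siE7 replicate 2. With the replicate block TP63 had an adjusted p = 0.062 and GRHL3 an adjusted p = 0.07. The repressors of epithelial genes in epithelial-mesenchymal transition (EMT) that could be tested all rose, 3 of 3. SNAI2 had 127, 114 and 125 CPM with siNC and 265, 337 and 318 CPM with siE7, a log2 fold change of 1.33 (SE 0.122, adjusted p = 1.9e-05). TWIST1 changed by 1.2 (adjusted p = 7.2e-05) and ZEB2 by 0.83 (adjusted p = 0.012; 0.071 without siNC replicate 2 and 0.051 without siE7 replicate 3), while SNAI1 and ZEB1 had too few counts to be tested.

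In the neighbouring junctions, 8 of 15 adherens junction genes fell, 2 rose and 5 did not pass, with a median of -0.39. E-cadherin (CDH1) went from 171 ± 4.88 to 83.6 ± 12.8 CPM (SD, n = 3 each), a log2 fold change of -1.03 (SE 0.126, adjusted p = 0.00014), and N-cadherin (CDH2) fell too (-1.10, adjusted p = 0.0008). The largest changes were those of ARVCF, a catenin related to the plakophilins (-1.88, adjusted p = 9.1e-05), and of NECTIN4, a cell adhesion receptor (2.16, adjusted p = 8e-07). Of 9 hemidesmosome genes, which tie keratins to the basement membrane, 7 fell, none rose and 2 did not pass, with a median of -0.87. DST, which fell, and PLEC, which did not pass, are in this list and also among the plakins above. LAMA3 (-1.89) and LAMB3 (-0.94), which encode laminin chains of the basement membrane, and ITGA6 (-1.70), an integrin chain of the hemidesmosome, had adjusted p-values of at most 0.00056.

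PERP rose while its relatives did not. Of the 4 tested genes of the PMP22 family, EMP1 (-1.47, adjusted p = 8.1e-06), PMP22 (-1.28, adjusted p = 0.017) and EMP3 (-0.75, adjusted p = 0.0027) fell, and EMP2 did not pass (-0.23, adjusted p = 0.23). The call of PMP22 was lost without siNC replicate 3 (adjusted p = 0.078), siE7 replicate 2 (adjusted p = 0.05) or siE7 replicate 3 (adjusted p = 0.069). Of 16 other targets of p53, 5 rose, 1 fell and 10 did not pass, with a median of 0.11. Among all tested genes 18.0% rose and 16.0% fell. TP53I3 changed by 1.53 (SE 0.128, adjusted p = 1.1e-05), BBC3, which promotes apoptosis, by 1.3 (adjusted p = 0.00072), SESN1 by 0.98 (adjusted p = 0.0099) and XPC, a DNA repair factor, by 0.77 (adjusted p = 0.00055). CDKN1A, the p53 target that halts the cell cycle, went the other way (-0.38, SE 0.125, adjusted p = 0.037) and was named after its values were seen. Its call was lost without siNC replicate 1, 2 or 3 (adjusted p = 0.12, 0.095 and 0.12), without siE7 replicate 2 or 3 (0.14 and 0.11), with upper-quartile factors (0.052) and without composition factors (0.11).

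Without siE7 replicate 1 more genes of these lists passed, as did more of all tested genes (29.5% lower and 28.9% higher). Of the keratins 10 were then lower and 1 higher, and of the assembly and turnover genes 16 were lower and 4 higher. The adherens junction genes had 10 lower and 2 higher, and all 9 hemidesmosome genes were lower. The transcription factors had 5 lower and 2 higher, and the p53 targets 4 lower and 6 higher, with a median log2 fold change of 0.0. The PMP22 family had 3 lower, and 3 EMT repressors were higher.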

How the data were processed

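RNA of 6 SCC-9 libraries, 3 siE7 and 3 siNC, was measured by directional mRNA sequencing. The authors deposited raw counts of reads per gene, without normalization, and these counts were used as given. The submitters' processing notes name GRCh38, HISAT2 and DESeq2, and the counting tool, the annotation release and whether counting used the strand are not given in the sources used here. Gene positions, exon lengths and GC content came from GENCODE v44 on GRCh38, to which 25283 of 25349 identifiers were matched without their version number. Promoter windows came from RefSeq.

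Genes were kept by filterByExpr, scaled by TMM factors and tested with the quasi-likelihood F-test of edgeR 4.0.16 (R 4.3.3) on group alone, with Benjamini-Hochberg adjustment over all 14661 tested genes. A gene was called at an adjusted p under 0.05, and a DEG also had a log2 fold change beyond 1. CPM were TMM-scaled. Shares and family sums were compared by exact permutation tests (scipy 1.17.1). DESeq2 1.42.0 and limma 3.58.1 (voom) were used as alternatives, together with other scalings and filters, a null log2 fold change of 0.5 in either direction, a replicate block, counts of overlapping genes added to the members, and each library left out. Removal of the GC trend (lowess, span 0.3) and exon unions as lengths were added after the data were seen. The fits were also run on simulated counts with the same dispersion for all genes, no GC trend and no deviating library. That run does not cover the deviation of siE7 replicate 1.

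The members and gene lists were chosen with earlier results of these data known. Named genes were the members, MKI67, the other desmosome genes, the genes overlapping a member, the 3 genes most like the members, and from each other list the up to 4 called genes with the largest change, or all tested genes in lists of 6 or fewer; those not needed are left out, and some genes that this rule names are not reported here. The numbers of the replicates were not treated as pairs. The qRT-PCR, protein, splicing, cell and animal experiments of the study are not analysed here. Genes overlapping a member (DSG2-AS1, DSCAS, DSP-AS1 and ENSG00000274976) held 1, 1, 318 and 1 counts over all libraries against 16858 for DSG2, 4255 for DSC2, 234629 for DSP and 1514 for PKP2. Python 3.11.15, numpy 2.4.6, pandas 2.3.3 and matplotlib 3.10.9 were used.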

Additional observations from a re-analysis of the deposited data

How the results depend on the processing

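The log2 fold changes of DSG2 (-0.96 to -0.65), DSC2 (-1.19 to -0.90), JUP (-1.10 to -0.72) and PERP (1.05 to 1.34) kept their direction and their call in all 17 alternatives that test for any change. In the test of changes beyond 0.5 on the log2 scale DSG2 was not called (adjusted p = 0.055). Of the 10 members, 6 were called in the reported test, 4 to 9 when a library was left out, and 3 in the test of changes beyond 0.5. Without composition factors, which moved the median of all tested genes up by 0.169 and the share of higher genes among those called from 52.9% to 71.2%, DSG3 passed (0.55, adjusted p = 0.030), DSP did not (-0.21, adjusted p = 0.10), and PKP2 changed sign (0.04, adjusted p = 0.89); DSC2 was then no DEG (-0.90). DSC3 passed with DESeq2 (-0.46, adjusted p = 0.039) and without a filter on low counts (-0.41, adjusted p = 0.041). With the GC trend removed, DSG3 (0.24), DSC3 (-0.52) and PKP1 (-0.26) passed, and with the replicate block added as well they had 0.24, -0.51 and -0.26. Leaving out 1 library gave 0.27 to 0.46 for DSG3, -0.53 to -0.28 for DSC3, -0.44 to -0.34 for DSP, -0.52 to -0.15 for PKP1 and -0.87 to -0.45 for PKP3. Exon unions as lengths raised the difference in the DSG3 share from 13.9 to 17.7 points. The cause of these changes was not tested beyond what each setting alters.

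The replicate block alone, for numbers that the labels do not tie to a shared culture, left 6 members called (log2 fold change of DSG2 -0.85, of PERP 1.17) and 4947 genes in all against 4990. Deviations of libraries with the same number correlated at -0.036, -0.018 and -0.047. Over the 10 lists beside the members, 58 genes were called in the reported test, and 45 to 81 in the 15 alternatives. A gene that is in more than 1 list, such as DST, counts once here. Leaving out siE7 replicate 1 raised the genes called from 4990 to 8765, and the GC trend removed gave 7411, while the test of changes beyond 0.5 gave 1746. With 3 libraries per group and a biological coefficient of variation of 0.157, the interval of PKP2 (-0.55 to 0.28) included 0. The lack of a call for PKP2 does not show that its level stayed the same.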
